A study of Mus musculus with 37 samples.

Results

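The immunoglobulin kappa V segments were the rows of the deposited gene table whose symbol begins with Igkv and whose value was at least 1 in 3 or more of the 37 libraries. This rule kept 109 of 160 Igkv rows, in a table of 35885 genes. The members were thus chosen by their values in all libraries, so that a member is measurable is no finding. It did not read the groups. Just inside the limit lay Igkv1-108 and Igkv11-106, which reached 1 in 3 libraries, and just outside lay Igkv4-75, which reached it in 2. Of the 51 rows left out, 16 were listed at 0 in every library, and the 109 members held at least 99.706% of the Igkv sum in every library. By GENCODE M21 (build GRCm38) 97 members are functional V genes, of 100 such rows, and 12 are pseudogenes, of 60 such rows. Values reached 1 in all 37 libraries for 41 members.

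The libraries came from femur marrow and spleen of wild-type C57BL/6N mice, as polyadenylated RNA of the whole tissue. Marrow had 3 control, 4 1-defeat, 3 4-defeat, 5 10-defeat and 4 rested libraries; spleen had 4, 2, 2, 6 and 4 in the same order. Defeated mice met social defeat stress once a day for 1, 4 or 10 days, rested mice were left alone for 1 week after 10 defeats, and control mice had no defeat. Each library is named here by its tissue and the number in its label, such as marrow D6; 15 numbers occur in both tissues, but the labels do not say that a number is a mouse, nor give sex or age. In whole tissue, fewer cells of a type and less RNA per cell cannot be told apart.

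An antibody light chain is made when a developing B cell in the marrow joins a V segment to a J segment of the kappa or lambda locus. The cutting is done by the recombinase genes Rag1 and Rag2. A cell normally keeps a single productive light chain, and its descendants inherit the join, so a clone of B cells or plasma cells uses a single V segment. Plasma cells, which secrete antibody, hold far more immunoglobulin RNA than resting B cells, and few of them can supply much of the immunoglobulin RNA of a tissue. Short reads assigned to V segments therefore show which segments the expressed light chains use, without showing how many cells carry each.

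The members lie on chromosome 6 between 67555497 and 70704177 of GRCm38, a span of 3.15 Mb, with the constant gene Igkc at 70726435 to 70726966. On the plus strand lie 43 members and on the minus strand 66, and the symbols give 20 families. The 8 segments shown here carry the results on single libraries. Each line gives the last bases of the spliced transcript in GENCODE M21, 5′ to 3′ on the gene's own strand, which end where the join to a J segment is made. Capitals mark the codon of the conserved cysteine that precedes the third antigen-binding loop.
Igkv6-15: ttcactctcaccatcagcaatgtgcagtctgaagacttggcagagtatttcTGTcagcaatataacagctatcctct
Igkv5-39: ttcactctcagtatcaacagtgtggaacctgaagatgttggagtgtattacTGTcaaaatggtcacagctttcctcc
Igkv12-41: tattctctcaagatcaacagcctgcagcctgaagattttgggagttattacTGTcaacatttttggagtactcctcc
Igkv3-4: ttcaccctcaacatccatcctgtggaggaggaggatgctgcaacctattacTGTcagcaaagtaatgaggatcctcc
Igkv14-100: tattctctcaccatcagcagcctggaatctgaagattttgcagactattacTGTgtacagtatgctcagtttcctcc
Igkv3-2: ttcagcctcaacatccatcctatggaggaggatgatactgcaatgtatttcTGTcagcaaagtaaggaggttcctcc
Igkv1-88: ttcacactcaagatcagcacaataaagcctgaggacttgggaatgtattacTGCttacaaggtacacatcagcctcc
Igkv4-57-1: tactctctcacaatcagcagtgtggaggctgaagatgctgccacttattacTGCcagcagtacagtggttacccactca
Igkv6-15 lies at 70406469 to 70406992 (minus strand), Igkv5-39 at 69900424 to 69900977 (minus), Igkv12-41 at 69858420 to 69858884 (minus) and Igkv3-4 at 70671788 to 70672377 (plus). Igkv14-100 lies at 68519012 to 68519477 (plus), Igkv3-2 at 70698449 to 70699067 (plus), Igkv1-88 at 68862265 to 68863031 (minus) and Igkv4-57-1 at 69544359 to 69544907 (minus).

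Many segments resemble each other, which limits how reads can be assigned. Of the 31-base words in a member's transcripts, a median of 54.9% occurred in no other Igkv gene. For 47 members under 50% were their own, for 5 all were, and the lowest share was 11%. Igkv14-100 had 99.7% of its words to itself, whereas Igkv1-110 and Igkv1-117 shared 63.1% and 62.6% of theirs with each other. Members with few words of their own are uncertain one by one, since the authors' quantification could split reads between near-identical copies. Among segments named below, Igkv4-55 had 21.8% to itself, Igkv4-78 23.5%, Igkv3-5 23.9%, Igkv3-12 29.5% and Igkv5-45 32.7%. Igkv3-4 had 44.8%, Igkv12-41 46.4%, Igkv6-15 65.3%, Igkv5-39 84.2% and Igkv8-16 96.6%.

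The files give no read counts, but the steps between low values put the depth at an estimated 3.61 to 35.0 M reads a library, where M is 1e6 reads. The estimate assumes fragments of 200 bases, and the counts change with that length. On that estimate the kappa V segments took 1158 to 10302 reads in marrow libraries and 14492 to 180153 in spleen libraries. Low segments in marrow are therefore the least precise. The B cell marker Cd79a ranged from 227 to 337 in control marrow and from 665 to 744 in control spleen.

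Values are the authors' abundances scaled per library, which are per transcript length, so that levels may be compared between segments. The usage of a segment is its value as a percentage of the sum over the 109 members in the same library. In control marrow the highest mean usage was that of Igkv3-2, Igkv5-39, Igkv10-96, Igkv19-93, Igkv1-117, Igkv12-46, Igkv14-126, Igkv4-57-1, Igkv1-135 and Igkv1-110, which summed to 39.99%. In control spleen 9 of these 10 were again among the 10 highest, with Igkv9-120 in place of Igkv14-126, and the sum was 48.5%. Over the 109 segments the mean control usage of marrow and of spleen had a Spearman correlation of 0.959, given as a description of points that share sequence and read assignment.

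Steady and unsteady segments stood side by side among these. Igkv1-117 held 4.11% ± 0.437 (SD, n = 3) of control marrow and 4.89% ± 1.44 (n = 4) of control spleen. Igkv10-96 held 4.49% ± 1.05 and 5.10% ± 1.90. Igkv3-2 led control marrow through 1 library, with 12.4% in C1 against 1.28% and 1.36% in the others. Igkv4-57-1 was high in library C2 of both tissues, at 9.15% in marrow and 8.44% in spleen; the next highest of all 37 libraries was marrow D9 at 1.90%.

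Igkv5-39 had a higher usage in spleen than in marrow, with ranges that overlapped. Its median usage was 22.8% over 18 spleen libraries, with a range of 5.48% to 75.4%, and 2.94% over 19 marrow libraries, with a range of 1.28% to 32.3%. It was the highest segment in 14 of 18 spleen libraries and in 5 of 19 marrow libraries. The annotation holds a pair of transcripts for it, and the shorter, of 287 bases, is contained in the longer, of 347 bases. The first 120 bases of the longer are shown because the segment carries so much of the spleen sum; capitals mark the 60 bases that the shorter lacks.
Igkv5-39: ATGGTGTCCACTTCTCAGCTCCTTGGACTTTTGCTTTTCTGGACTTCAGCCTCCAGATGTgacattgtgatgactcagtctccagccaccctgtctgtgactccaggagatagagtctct
Such a contained shorter transcript exists for 13 members, and the next highest median spleen usage among them was 1.64% (Igkv8-27). The part of this annotation in the level of Igkv5-39 was not tested.

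Single segments dominated some libraries. A segment was called dominant where it held at least 10% of a library's Igkv sum and at least 3 times its median usage in that tissue. This gave 13 instances in 13 libraries, 10 in marrow and 3 in spleen, by 7 segments. The values chose these instances, so they are described and not tested.

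Igkv6-15 held 73.3% of the sum in marrow D6, a 10-defeat library, with a value of 1236, where its median over the marrow libraries was 2.01%. The second highest usage in any marrow library was 7.54%. In spleen D6 the same segment held 25.4%, which was its highest usage among the 18 spleen libraries. Spleen D9, also after 10 defeats, followed at 13.7%, and marrow D9 stood at 5.80%.

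Igkv12-41 held 39.2% of marrow D11 (4 defeats), against 1.89% or less in every other marrow library. No spleen library carries the number D11. Igkv5-39 held 32.3% of marrow D10 and 43.1% of spleen D10, both after 10 defeats. In spleen D5, after 10 defeats, Igkv5-39 held 75.4%, with a value of 25389, and marrow D5 stood at 8.27%. Spleen D15, after 1 defeat, was next at 62.8% and missed the rule of 3 times the tissue median.

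Igkv3-4 held 22.2% of marrow D8 and 7.21% of spleen D8, both rested, the highest of its tissue in each. Igkv3-2 held 14.4% of marrow D17 (1 defeat), 12.4% of marrow C1 (control) and 11.4% of marrow D9 (10 defeats). In spleen C1 it held 7.61%, the highest of the 18 spleen libraries, but in spleen D9 only 0.888%. Igkv14-100 held 19.1% of marrow D3 and 0.732% of spleen D3, both rested. Igkv1-88 held 11% of marrow D1 and 0.260% of spleen D1, both rested.

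Of 11 instances whose number also occurs in the other tissue, the library of that number ranked first there in 4, and D6 counts from both sides among these. So the mirror was seen for some dominant segments and not for others. Dominant segments occurred in 2 of 3 control, 1 of 4 1-defeat, 1 of 3 4-defeat, 3 of 5 10-defeat and 3 of 4 rested marrow libraries, and in 3 of 6 10-defeat spleen libraries and no other spleen group. With 5% and 5 times the median in place of 10% and 3 times, there were 21 instances, and 8 of 18 with a counterpart ranked first. Under that rule the spleen controls C1 and C2 and rested spleen D8 also held dominant segments, and spleen D5 did not.

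**Figure D1:**
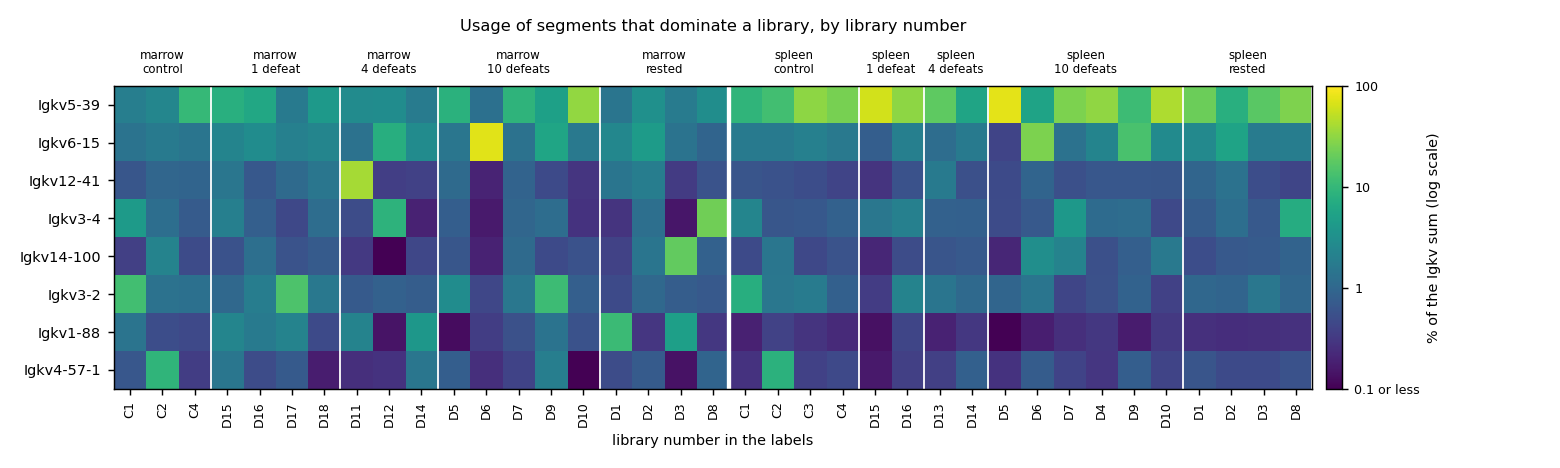
Usage of the 7 dominant segments and of Igkv4-57-1 (rows, % of the Igkv sum, log colour scale) in the 37 libraries (columns, by tissue, group and label number). Igkv6-15 stands out in D6 of both tissues, with 73.3% in marrow and 25.4% in spleen, whereas Igkv14-100 is high in marrow D3 at 19.1% and not in spleen D3 at 0.732%.

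The evenness of usage was summarised as the effective number of segments, the exponential of the Shannon entropy, which is the number of equally used segments that would give the same diversity. In marrow it was 46.7, 55.8 and 48.8 in the controls C1, C2 and C4, and 47.4 to 56.9 after 1 defeat. After 4 defeats it was 21.5, 35.6 and 47.1 in D11, D12 and D14. After 10 defeats it was 46.4, 4.80, 41.2, 40.2 and 22.8 in D5, D6, D7, D9 and D10. In the rested group it was 47.7, 50.9, 33.2 and 33.1 in D1, D2, D3 and D8. The 10-defeat values all lay below the lowest control of 46.7, with D5 just under it. The 4-defeat and rested values overlapped the controls. The place of D5 depended on the measure. Without Igkv5-39 its effective number was 48.1, above the lowest control, C1, at 45.7. By the inverse Simpson index, another measure of evenness, D5 had 32.1 and the lowest control, C1, had 27.1. On each of these measures D6, D7, D9 and D10 stayed below the lowest control.

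In spleen the effective number was 45.9, 45.2, 28.5 and 34.1 in the controls C1 to C4, and 8.16 and 28.5 after 1 defeat. It was 36.1 and 52.3 after 4 defeats, and ran from 4.72 (D5) over a median of 29.8 to 37.7 (D9) after 10 defeats. Rested values ran from 31.5 to 50.2 around a median of 40.7. The groups overlapped, except that a value of 8.16 and of 4.72 lay far below the rest. The spread within each group was smaller without Igkv5-39, where the means were 50.4 ± 1.70 in controls (SD, n = 4), 49.9 ± 2.95 after 1 defeat (n = 2), 48.6 ± 5.75 after 4 defeats (n = 2), 47.2 ± 9.93 after 10 defeats (n = 6) and 52.5 ± 3.80 in the rested group (n = 4).

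**Figure D2:**
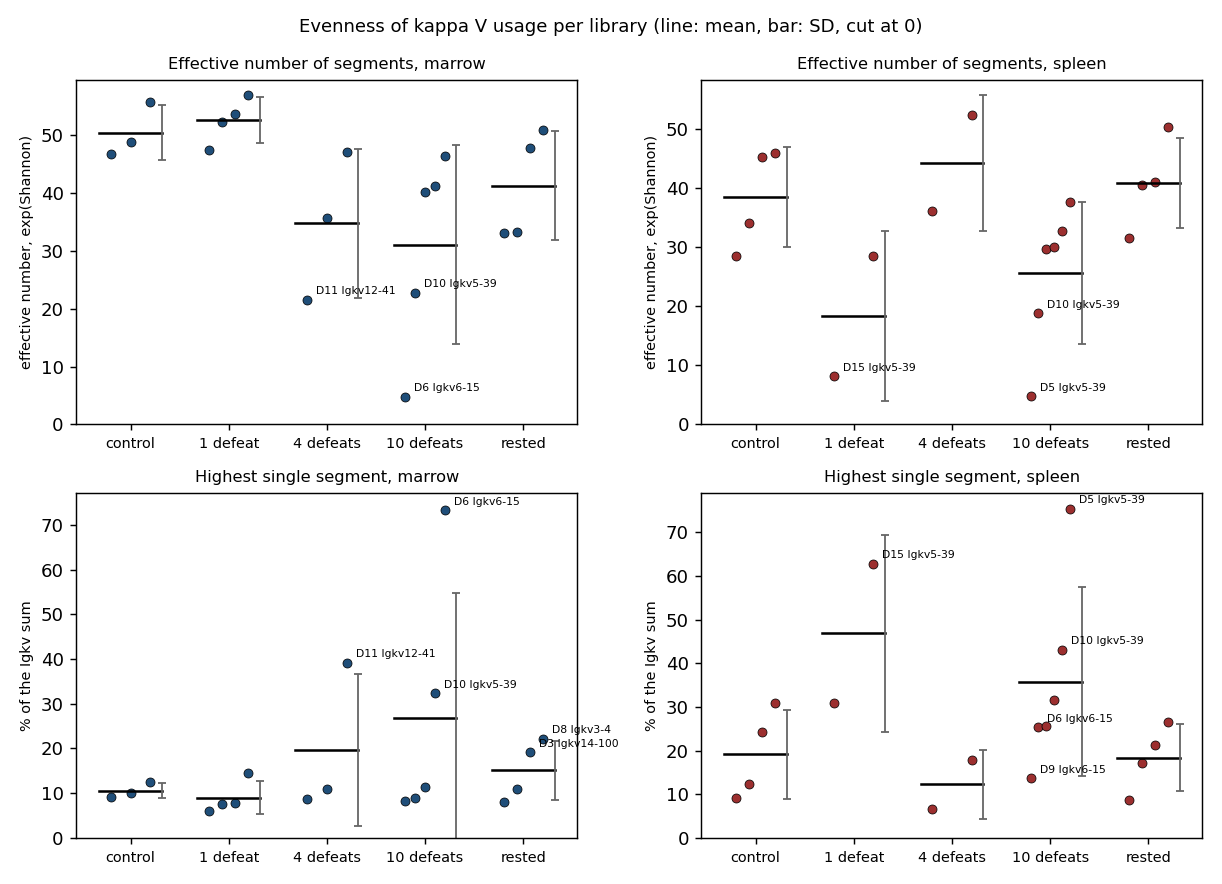
Effective number of kappa V segments (upper panels) and usage of the highest segment in % of the Igkv sum (lower panels) for each library (points), with the group mean (line) and SD (bar, cut at 0). The lowest effective numbers are 4.80 in marrow D6, where Igkv6-15 leads, and 4.72 in spleen D5, where Igkv5-39 leads.

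Beyond the dominant segments, the whole usage pattern was compared between tissues for the 15 shared numbers. Usage was taken as log2(usage + 0.1%), the median of the tissue was subtracted, and each marrow library was correlated with each spleen library over the 109 segments. Same-numbered pairs had a median Pearson r of 0.372, with a range of 0.088 to 0.622. The 327 other pairs had a median of -0.013, with a range of -0.347 to 0.541. For 11 of 15 marrow libraries the most alike of the 18 spleen libraries was the one with its own number, and likewise for 11 of 15 spleen libraries among 19 marrow libraries.

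The likeness was highest for D8 (0.622), D2 (0.554), D10 (0.507), C2 (0.496) and C1 (0.485), and lowest for D7 (0.088), C4 (0.121) and D16 (0.136). With the mean of the group subtracted instead, 12 marrow and 12 spleen libraries were most like their own number, with a median r of 0.381. Without the 8 segments that reach 10% in any library, 101 remained and the own number was best for 10 marrow and 9 spleen libraries. Over all 14513 genes past the filter, treated with the tissue median, the median r of same-numbered pairs was 0.085 and the own number was best for 2 and 2. The points share segments of like sequence, the median they are set against and, within a library, a fixed total. The correlations are therefore given as a description.

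**Figure D3:**
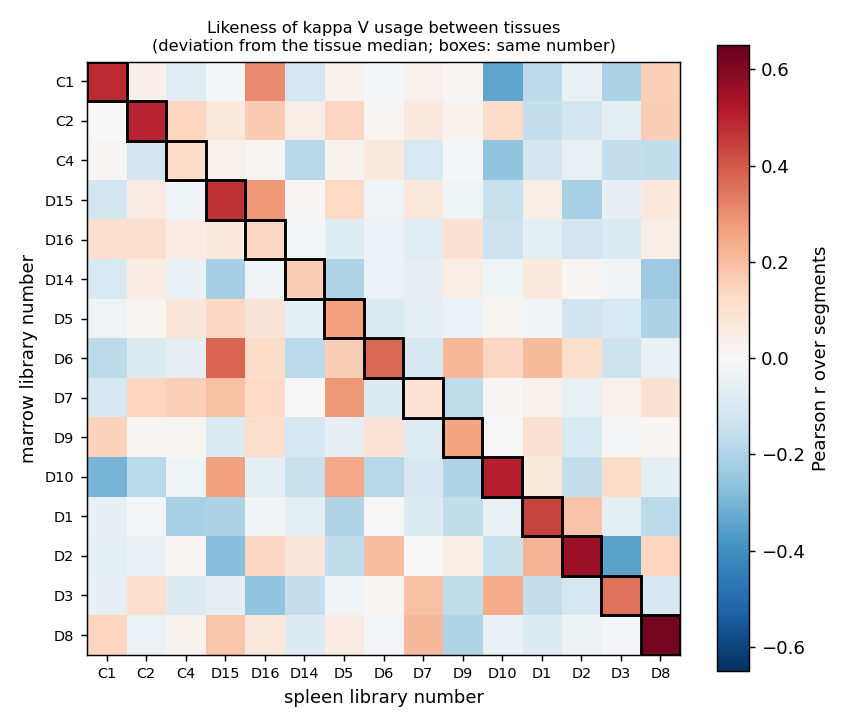
Pearson r over 109 segments between the usage pattern of each marrow library (rows) and each spleen library (columns) for the 15 label numbers found in both tissues, with same-numbered pairs boxed. The boxed diagonal runs from 0.088 for D7 to 0.622 for D8, and most other cells are near 0.

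The summed level of the 109 segments was far higher in control spleen than in control marrow. It was 1196, 1372 and 2006 in the marrow controls and 15657, 13386, 16951 and 17846 in the spleen controls. Every spleen control lay above every marrow control. Of the 109 members, 17 did not reach 1 in 3 marrow libraries, the filter used within marrow. They are left out of the count, since spleen is the tissue where the segments are high. Of the 92 that also passed the filter in marrow, 84 were higher in undefeated spleen and none lower, against 27.1% of all genes tested that were higher. Their median log2 difference was 2.90, and that of all genes 0.10. Igkc, the kappa constant gene that every kappa light chain transcript carries, was higher by 3.24 ± 0.42 (SE; limma, adjusted p = 1.34e-07).

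The rule for named segments gave Igkv5-39, Igkv4-86, Igkv8-27, Igkv3-5 and Igkv7-33. Igkv5-39 had 22.7, 32.3 and 202 in the marrow controls C1, C2 and C4 and 1422, 1654, 5241 and 4322 in the spleen controls, a log2 difference of 5.64 ± 0.98 (SE; limma, adjusted p = 1.77e-05). Igkv4-86 averaged 5.99 ± 2.85 (SD, n = 3) in marrow and 138 ± 55.6 (n = 4) in spleen. Igkv8-27 averaged 16.9 ± 8.53 in marrow and 252 ± 38.4 in spleen. Igkv7-33 did not pass the filter in marrow, so its values are a description. They were 0.552 ± 0.264 in marrow, the level of a few reads, and 20.1 ± 4.88 in spleen. Rag1 and Rag2, which cut at the V and J segments, went the other way, with means of 10.1 and 4.75 in control marrow and 0.0441 and 0.178 in control spleen.

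After 1 defeat the summed marrow level was 1217, 936, 1138 and 1030, and after 4 defeats 1323, 735 and 629. After 10 defeats it was 694, 1686, 679, 1154 and 933, and in the rested group 2289, 3147, 1513 and 1274. The 4-defeat and 10-defeat groups each overlapped the controls, through D11 and D6, libraries with a dominant segment. When the highest segment of each library was left out, the sum was 1047 to 1803 in controls, 561 to 804 after 4 defeats, 450 to 1023 after 10 defeats and 991 to 2895 in the rested group. On this measure the 4-defeat and 10-defeat libraries all lay below the lowest control. This variant was chosen after seeing the data, and no test was run on the sums.

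**Figure D4:**
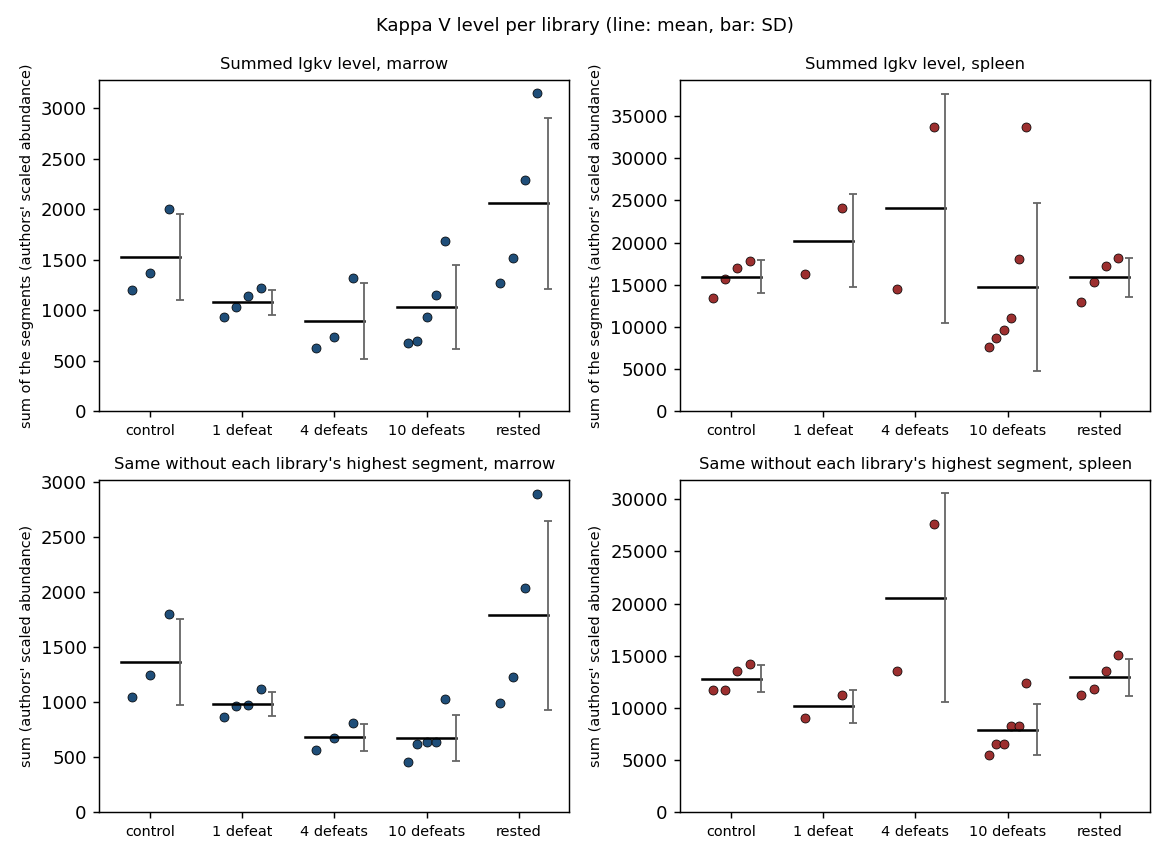
Sum of the 109 kappa V segments in the authors' scaled abundance (upper panels) and the same without the highest segment of each library (lower panels), by group, with each library as a point, the mean as a line and the SD as a bar. In marrow the 10-defeat libraries span 679 to 1686 with all segments and 450 to 1023 without the highest, against 1047 to 1803 in controls without the highest.

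In marrow after 1 defeat no segment passed the test. Of 92 segments past the filter on low values (at least 1 in 3 marrow libraries) none passed in limma, and 7 had an unadjusted p below 0.05. Of all 12442 genes, 535 had an unadjusted p below 0.05, and 1 passed after adjustment (0.00804%). The other 17 members stayed below this filter in marrow.

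After 4 defeats 12 of 92 segments fell and none rose, where 13% of all genes tested fell, so the share was that of the background. The median log2 difference of the 92 was -0.97, and that of all genes -0.11. Igkv3-12 was 11.7, 21.0 and 11.4 in controls and 3.24, 1.57 and 2.25 in D11, D12 and D14. The groups did not overlap, and it fell by 2.20 ± 0.49 (SE; limma, adjusted p = 0.00808). Igkv12-46 was 84.1, 16.5 and 64.9 in controls and 6.07, 2.99 and 14.1 after 4 defeats, a fall by 2.62 ± 0.85 (limma, adjusted p = 0.0426; 0.037 to 0.169 over its alternatives), a call lost in 10 of 13 alternatives. Igkv4-55, Igkv13-85 and Igkv3-5 fell by 1.93, 1.85 and 1.77. The count was 7, 3 and 5 without control C2, control C4 and D12, and without C4 or D12 Igkv12-46, Igkv4-55, Igkv13-85 and Igkv3-5 each lost their call.

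After 10 defeats 32 of 92 segments fell and none rose, where 28.3% of all genes fell, again a share near the background. The comparison uses the same controls as that of 4 defeats. The median log2 difference of the segments was -1.02 and that of all genes -0.13. In 27 of the 32 (84.4%) the libraries of both groups did not overlap, and the same held for 89.4% of all genes that fell. Calls were spread along the locus: with the members in 4 groups by distance, from nearest Igkc to farthest, 7 of 24, 7 of 21, 8 of 24 and 10 of 23 tested segments fell.

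Igkv8-16 was 3.72, 8.01 and 9.09 in controls and 1.23, 0.83, 0.81, 0.82 and 0.89 in D5, D6, D7, D9 and D10. Every 10-defeat library lay below every control, and it fell by 1.98 ± 0.28 (SE; limma, adjusted p = 0.000125). Igkv6-17 was 23.5, 20.8 and 50.1 in controls and 0.84 to 8.26 after 10 defeats, a fall by 2.47 ± 0.59 (adjusted p = 0.00389, limma). Igkv3-12 was 11.4 to 21.0 in controls and 0.89 to 2.94 after 10 defeats, a fall by 2.41 ± 0.44. Igkv6-25 and Igkv5-45 fell by 2.06 and 2.001. Values near 1 rest on few reads. On the depth estimate a read in a segment of median length was worth 0.173 to 0.34 in the marrow controls. After 10 defeats it was worth 0.186, 0.595, 0.607, 0.398 and 0.383 in D5, D6, D7, D9 and D10. Without control C2 or C4 the count of segments was 21 or 15, and the 5 named here kept their calls under each of 15 alternatives.

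Most listed genes of the kappa locus and of B cells fell in the same comparison, while the constant gene did not pass. Igkc was 1868 ± 342 (SD, n = 3) in controls and 1482 ± 632 (n = 5) after 10 defeats, a log2 difference of -0.42 ± 0.33 (SE; limma, adjusted p = 0.302; 0.0454 with quantile normalization). The 5 J segments, Rag1, Rag2 and Dntt, an enzyme that adds bases at the join, complete the kappa list with Igkc, and 6 of the 9 fell. Rag1 fell by 1.98 ± 0.36 and Rag2 by 1.51 ± 0.28. All 8 tested genes of the lambda list fell, Iglc2, a lambda constant gene, by 2.03 ± 0.33. Besides lambda constant and V genes, that list holds Igll1, Vpreb1, Vpreb2 and Vpreb3, which are not lambda light chain genes. Ighm, the IgM heavy chain, fell by 1.32 ± 0.31 (limma, adjusted p = 0.00326), and Igha, the IgA heavy chain, differed by 0.88 ± 0.36 (adjusted p = 0.0549 by limma).

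Of 12 mature B cell genes 11 fell after 10 defeats, Cd79a, a subunit of the B cell receptor, by 3.09 ± 0.66. Of 11 tested B precursor genes all 11 fell. That list shares Rag1, Rag2 and Dntt with the kappa list, and Vpreb1 and Igll1 with the lambda list, so the counts overlap. Of 10 tested plasma cell genes 7 fell and 1 rose: Sdc1, which codes for the plasma cell surface protein CD138, fell by 0.94 ± 0.18, while Xbp1, a factor of secretory cells, rose by 0.61 ± 0.16. Jchain, which links secreted IgM and IgA, was 59.9 ± 8.17 in controls and 72.2 ± 23.8 after 10 defeats, a difference of 0.22 ± 0.27 (adjusted p = 0.526, limma). All 7 neutrophil genes rose, S100a9 by 1.63 ± 0.25. The summed level of the 12 mature B cell genes was 974 to 1328 in controls and 227 to 407 after 10 defeats, and that of the plasma cell list 223 to 253 and 174 to 275. The part of these cell types in the segments' fall was not tested.

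In rested marrow 24 of 92 segments were higher than after 10 defeats and none lower, against 13.8% of all genes that were higher. The 10-defeat libraries are the same as in the comparison above. The median log2 difference was 1.05 for the segments and 0.09 for all genes. Igkv6-23 was 6.69, 2.61, 11.4, 11.8 and 6.29 after 10 defeats and 53.4, 74.0, 53.5 and 28.9 in the rested D1, D2, D3 and D8. All rested libraries lay above all 10-defeat libraries, and also above the controls of 16.9 to 23.4; it rose by 2.67 ± 0.39 (SE; limma, adjusted p = 0.000996). Igkv2-137 was 2.77 to 9.33 after 10 defeats and 22.8 to 76.2 in the rested group, a rise by 2.57 ± 0.35. Igkv17-121 and Igkv3-12 rose by 2.52 ± 0.61 and 2.5 ± 0.40.

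Igkv14-100 rose by 2.57 ± 0.79 (limma, adjusted p = 0.0318), with 289 in rested D3, where it is dominant, and 8.90, 46.2 and 10.9 in D1, D2 and D8. Its call was lost without rested D2 or D3 or without 10-defeat D6, D9 or D10, with adjusted p up to 0.089 over its alternatives in limma. The count of segments was 14 without rested D2. Igkc was 2485 ± 602 (SD, n = 4) in the rested group, a difference of 0.82 ± 0.30 from 10 defeats (limma, adjusted p = 0.0598; 0.0154 to 0.171 over its alternatives). Jchain rose by 0.78 ± 0.25 (limma, adjusted p = 0.0352), a call lost in 9 of 16 alternatives. Of the 10 tested plasma cell genes 7 rose, and of 11 B precursor genes 9.

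Against the controls, rested marrow showed no segment past the threshold in limma, with 13 of 92 at an unadjusted p below 0.05, 5 higher and 8 lower. Of all 12442 genes, 1768 had an unadjusted p below 0.05. No gene of 12442 passed in this comparison (0.0%). The segments' median log2 difference was 0.02 and that of all genes -0.02.

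In spleen the summed level after 1 defeat was 24110 and 16306, and after 4 defeats 33667 and 14446. After 10 defeats it was 33667, 8748, 11055, 18065, 7580 and 9598 in D5, D6, D7, D4, D9 and D10, and in the rested group 17186, 12962, 18218 and 15277. The lowest 4 of the 10-defeat libraries, D6, D7, D9 and D10, lay below every control, and D4 and D5 above every control. These 4 and rested D2 are also the 5 spleen libraries whose column totals run from 1539153 to 2652290, against 1015794 at most in the others, and whose beta-globin Hbb-bs is high. Their part in the lower segment values was not tested, but the counts without them are given.

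After 1 and after 4 defeats no spleen segment passed in limma. At an unadjusted p below 0.05 in limma there were 10 of 109 segments after 1 defeat and 16 after 4 defeats. Of all 13945 genes, 2104 and 1314 had an unadjusted p below 0.05. After adjustment 0.688% and 0.043% of all genes passed. With 2 libraries a group these comparisons rest on the spread of the other groups. Without spleen D14 the 4-defeat count was 3, all higher, and without the 5 libraries with large totals 2 segments passed after 1 defeat and 1 after 4 defeats.

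After 10 defeats 33 of 109 spleen segments fell and none rose, where 41.9% of all genes fell, so the share of segments was below the background. The median log2 difference was -0.72 for the segments and -0.36 for all genes. For the segments it was -0.31 with median-ratio rescaling, -0.31 without the 5 libraries with large totals and -1.38 with rescaling to equal totals. In 6 of the 33 (18.2%) the groups did not overlap, where the share was 60.7% among all genes that fell. Igkv6-32 was 287, 190, 219 and 201 in controls and 47.4 to 159 after 10 defeats around a median of 102.6, a fall by 1.33 ± 0.33 (SE; limma, adjusted p = 0.00386). Igkv2-107 is a rare segment, annotated as a pseudogene. It was 2.648 to 10.2 in controls and 0 to 1.25 after 10 defeats, with a median of 0.419. It fell by 1.95 ± 0.37. Igkv4-78, Igkv2-137 and Igkv7-33 fell by 1.59, 1.45 and 1.08, and lost their calls without the 5 libraries with large totals. Without those libraries, which leaves D4 and D5 after 10 defeats, 5 segments passed, 2 higher and 3 lower, and with median-ratio rescaling 10 fell.

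Igkc in spleen was 18018 ± 4853 (SD, n = 4) in controls and 15846 ± 10282 (n = 6) after 10 defeats, a log2 difference of -0.37 ± 0.41 (SE; limma, adjusted p = 0.447) that turned to 0.11 with median-ratio rescaling and to 0.55 without the 5 libraries. All 12 mature B cell genes fell, Cd79a by 2.10 ± 0.57, a call lost without the 5 libraries (limma, adjusted p = 0.132). All 7 neutrophil genes and 5 of 6 erythroid genes rose.

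Rested spleen differed from control spleen in 1 segment of 109, the pseudogene Igkv2-107, where 4.24% of all genes fell. It fell by 1.49 ± 0.41 (SE), with an adjusted p of 0.0397 by limma and of 0.0333 to 0.146 over its alternatives. It lost the call without control C1, C2 or C4 or rested D1, D2 or D3, and 2 segments passed without control C3 or rested D8. Against 10 defeats 3 segments rose, against 0.272% of all genes. Igkv11-125 was 4.16, 4.49, 3.21, 8.10, 5.14 and 12.9 after 10 defeats and 16.8, 59.0, 93.7 and 67.3 in rested D1, D2, D3 and D8. The groups did not overlap, and it rose by 2.93 ± 0.46 (limma, adjusted p = 0.0221; 0.00656 to 0.176 over its alternatives). Igkv12-38 and Igkv12-44 rose by 1.89 and 1.12, and lost their calls in 16 and 17 of 18 alternatives. The count was 31 without D4, and 0 or 1 when any other library of these groups was left out: 0 without D7 or rested D3, and 1 without D5, D6, D9, D10 or rested D1, D2 or D8.

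**Figure D5:**
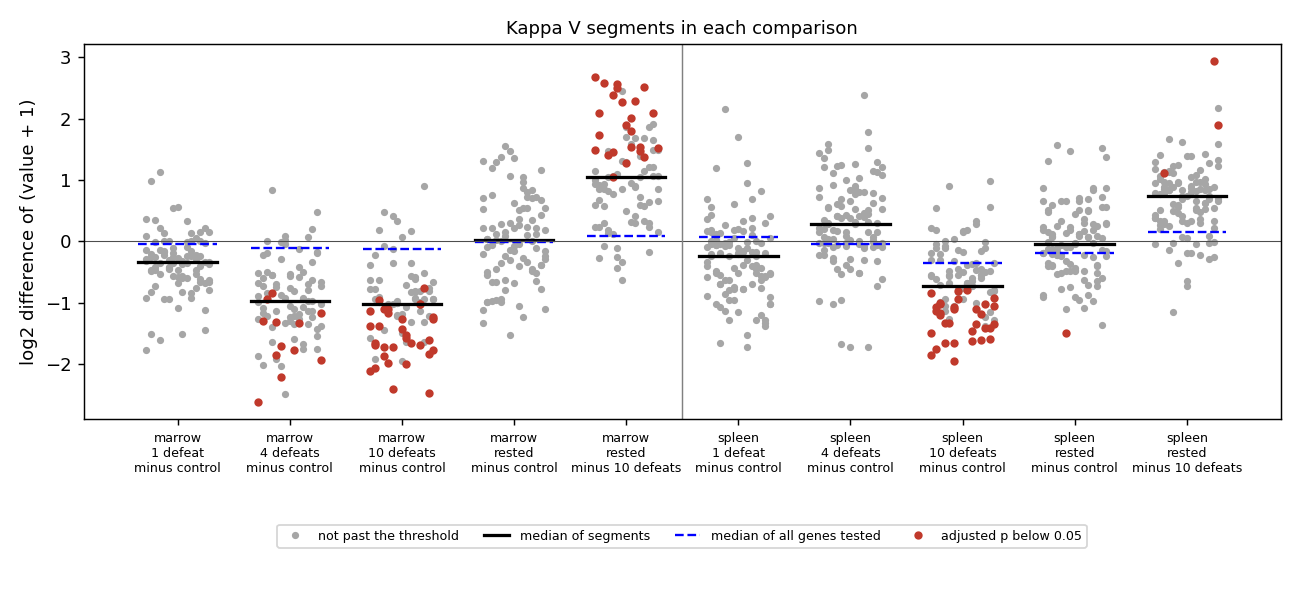
Log2 difference of (value + 1) of each kappa V segment (points) in the 10 within-tissue comparisons, red where the limma adjusted p is below 0.05, with the median of the segments (black line) and of all genes tested (dashed line). The segments' median lies at -1.02 in marrow after 10 defeats and at 1.05 between rested and 10-defeat marrow, while the median of all genes lies at -0.13 and 0.09.

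The effect of 10 defeats was also compared between tissues by an interaction term. It passed in 3 of 109 segments, Igkv13-84 (1.89 ± 0.77, SE), Igkv6-23 (1.55 ± 0.53) and Igkv8-16 (1.05 ± 0.42), each less lowered or higher in spleen, against 16.1% of all genes that passed in this direction. Igkv6-23 was 199, 253, 214 and 169 in spleen controls and 131 to 561 after 10 defeats, with a median of 215, while in marrow it was 16.9 to 23.4 and 2.61 to 11.8. Igkv8-16 was lower in both tissues after 10 defeats, with 56.2 to 70.8 in spleen controls and 21.2 to 39.8 after 10 defeats. The interaction called 0 segments without marrow C4, 1 without marrow D6 or spleen C4, and 5 without spleen D5. With rescaling to equal totals none of the 3 passed and 1 other segment was lower.

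By family, the highest mean usage over the 19 marrow libraries was 12.8% ± 3.57 (SD) for Igkv1, 12.5% ± 15.2 for Igkv6 and 11.9% ± 3.48 for Igkv4. The rank of Igkv6 rested on marrow D6: without it the means were 13.3% for Igkv1, 12.4% for Igkv4, 9.24% for Igkv5, 9.13% for Igkv3 and 9.03% for Igkv6 (n = 18). In spleen Igkv5, which holds Igkv5-39, led with 28.2% ± 18.6 (n = 18), before Igkv4 with 10.9% and Igkv1 with 10.4%. By position, the 27 members farthest from Igkc (2207 to 3170 kb) held 32.6% ± 8.95 (SD) of marrow usage and 23.5% ± 6.38 of spleen usage, and the 28 nearest (22.3 to 667 kb) 28.5% ± 14 and 22.9% ± 8.07. Without Igkv5-39 the tissues were close, with 34.8% and 32.1% for the farthest and 29.9% and 30.7% for the nearest. The 12 pseudogenes held 0.345% of marrow and 0.193% of spleen usage.

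Among genes outside the immunoglobulin segments, the summed Igkv level ran most alike with Tvp23b (Spearman 0.793), Ccnq (0.775), Ly6a (0.774), Sec24a (0.765) and Jchain (0.735) over the 19 marrow libraries. Over the 18 spleen libraries it was Wbp11 (0.874), Sdc1 (0.868), Aplp2 (0.864), Phka2 (0.856) and Cptp (0.853). Igkc had 0.949 in marrow and 0.808 in spleen, and Cd79a 0.247 and 0.352. Plasma cell genes did not all run with the sum: Sdc1 had 0.477 in marrow, Jchain 0.352 in spleen, Mzb1 0.488 in marrow and -0.622 in spleen, and Xbp1 -0.105 and 0.069. Igha had -0.123 in marrow and 0.668 in spleen. These were picked as the highest of 9708 and 9332 genes and share the libraries' depth and scaling, so they are a description.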

How the data were processed

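RNA was extracted with NucleoSpin RNA Plus and libraries were made as stranded polyadenylated RNA libraries, per the labels' protocols. The deposited values are signal, abundances per gene that the authors scaled per library; kallisto 0.46.1, sleuth and GRCm38 are named in the submitters' processing notes without their roles, and no source used here states the exact scaling. Steps between low values scale with transcript length, so that depth could only be estimated.

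The members, the gene lists and the comparisons were chosen with earlier results of these data known. log2(value + 1) was fitted with limma 3.58.1 (trend, robust; R 4.3.3), with the 5 groups of a tissue in a single fit or both tissues for the cross-tissue comparisons. Genes needed a value of at least 1 in 3 marrow, 2 spleen or, across tissues, 2 libraries. P-values were adjusted over all genes tested (Benjamini-Hochberg), with a threshold of 0.05. Fold changes are on this scale and understate those of low genes. Nothing in the labels says that libraries of a group come from separate mice, so p-values measure the spread between these libraries. Named segments were the 10 with the highest control usage in each tissue, the largest 10 dominant instances and, per comparison, up to 5 rises and 5 falls among those past the threshold with groups that did not overlap and, in the group with the larger values, a mean of 2 or more. The likeness of usage patterns and its offset were chosen after seeing the data, as were rescaling to equal totals, leaving out the 5 spleen libraries with large totals, the split of members by the marrow filter, family means without a library, and sums without the highest segment. The fits were tested on simulated data. Sequences and positions are from GENCODE M21; usage was computed with Python 3.11.15, pandas 2.3.3 and numpy 2.4.6.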

Additional observations from a re-analysis of the deposited data

Results flagged for a closer look

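Dixon's criterion was applied within groups of 4 to 6 libraries. The values were the usage of the 7 dominant segments, summed level, effective number, highest usage and Igkc. Control and 4-defeat marrow and 1-defeat and 4-defeat spleen, with 3 or 2 libraries each, were not examined. The criterion marked a library as apart from the rest of its group in 12 of 66 such groups of values. All 12 were groups of segment usage. By chance the criterion marks about 1 in 20 groups. These segments were picked because a library was high in them, so the marks are a description and no test. In marrow, Igkv6-15 was 73.3% in D6 (10 defeats), where the other libraries of the group had 1.34% to 5.80%. Igkv5-39 was 32.3% in D10 (10 defeats; others 1.28% to 8.92%). Igkv3-4 was 22.2% in rested D8 (others 0.15% to 1.24%), and Igkv14-100 was 19.1% in rested D3 (others 0.389% to 1.47%). Igkv3-2 was 14.4% in D17 after 1 defeat (others 1.03% to 1.86%) and 11.4% in D9 after 10 defeats (others 0.436% to 2.88%).

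In spleen the gaps were at lower levels. Igkv3-2 was 7.61% in control C1 (others 0.835% to 1.75%) and 1.55% in rested D3 (others 0.918% to 1.01%). Igkv3-4 was 2.34% in control C1 (others 0.643% to 0.851%), 4.00% in D7 after 10 defeats (others 0.465% to 1.18%) and 7.21% in rested D8 (others 0.686% to 1.22%). Igkv14-100 was 1.51% in control C2 (others 0.452% to 0.583%). Igkv3-4 in D8 met the criterion in both tissues.

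The log2 difference between 10 defeats and control differed between spleen and marrow, by the interaction term in limma, for Igkv13-84 (1.89), Igkv6-23 (1.55) and Igkv8-16 (1.05). The calls were lost in 15, 3 and 18 of 26 alternatives.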

How the results depend on the processing

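Of 32 named segment results, 17 kept their call under every alternative run and 15 lost it under at least one; none changed direction. Counts of segments past the threshold moved as follows. Quantile normalization gave 7 for marrow after 4 defeats, 21 after 10 defeats, 1 for rested against control marrow, 0 for rested against control spleen and 1 for rested against 10-defeat spleen. Median-ratio rescaling gave 10 for spleen after 10 defeats, 0 for rested against control spleen, 1 for rested against 10-defeat spleen and 7 for the interaction, and a summed control spleen level of 13683. A pseudocount of 0.1 gave 1 for rested against 10-defeat spleen and 9 for the interaction. No filter gave 1 for rested against control marrow, 0 for rested against control spleen, 1 for rested against 10-defeat spleen and 1 for the interaction. Removing the length trend gave 13 for spleen after 10 defeats, 0 and 1 for rested spleen against control and against 10 defeats, and 5 for the interaction. Fitting only the groups compared gave 3 for rested against control marrow, 15 for rested against 10-defeat marrow, 2 and 1 for spleen after 1 and 4 defeats, and 0 for rested against 10-defeat spleen. Rescaling to equal totals gave 6 for marrow after 4 defeats, 50 for spleen after 10 defeats, 0 for rested against 10-defeat spleen and 1 for the interaction. Without the 5 spleen libraries with large totals there were 2, 1 and 5 for spleen after 1, 4 and 10 defeats, 0 for rested spleen in both comparisons and 7 for the interaction. The cause was not tested.

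After 10 defeats in spleen, Igkc turned to 0.11 with median-ratio rescaling and 0.55 without the 5 libraries, Jchain to 0.19 with median-ratio rescaling and 0.074 without the length trend, and Igha to 1.52 without the 5 libraries and, leaving out a library at a time, to a range of -1.04 to 0.0057, the highest without control C3. Without Igkv5-39 the effective number in spleen was 50.4 in controls, 49.9 after 1 defeat, 47.2 after 10 defeats and 52.5 in the rested group. The wider rule gave 21 dominant instances. With the replicate number as a block the counts over all 109 members were 92 for undefeated spleen against marrow and 3 for the interaction. Both were the same as without it (consensus correlation 0.011). Without the block, the 92 were 84 members past the marrow filter and 8 of the 17 below it, which the count in the results leaves out. The labels do not say that numbers pair libraries. With the tissue median subtracted, same-numbered correlations ran from -0.186 to 0.245 over all genes and from 0.088 to 0.622 over kappa V usage.

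Leaving out a library at a time gave 0 to 0 calls for marrow after 1 defeat, 3 to 16 after 4, 15 to 35 after 10, 0 to 0 for rested against control and 14 to 31 against 10 defeats. In spleen it gave 0 to 0 after 1 defeat, 0 to 3 after 4, 22 to 45 after 10, 0 to 2 for rested against control and 0 to 31 against 10 defeats. Counting also the members below the marrow filter, it gave 83 to 92 for undefeated spleen against marrow and 0 to 5 for the interaction. Summed levels ran from 16306 to 24110 after 1 defeat and from 14446 to 33667 after 4 defeats in spleen, and effective numbers from 8.16 to 28.5 and from 36.1 to 52.3. Depth limits the low marrow segments most.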
